A study of Homo sapiens with 8 samples.

Results

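ZIM2, PEG3, GRB10, PLAGL1, SGCE, PEG10, IGF2, MEST, UBE3A and DLK1 are 10 imprinted genes among the 19974 protein-coding genes of the annotation on chromosomes 1 to 22 and X. They were taken as a named list, and for each gene the listed HP1 peaks, their fold enrichment and the share of the gene window under peaks were read in all 8 libraries. A window is the gene body and 1 kb beyond each end. These same values were known when the list was drawn up, so they are given as a description, without a test. The windows of ZIM2 and PEG3 overlap, and so do those of SGCE and PEG10, so the 10 genes lie in 8 separate loci.

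An imprinted gene is expressed from only the maternal or only the paternal copy in at least some tissues. The choice is set by DNA methylation laid down in the germ line at a control region, and the methylated copy often carries H3K9me3, the histone mark that HP1 proteins bind. ZFP57 and ZNF445, zinc finger proteins that bind methylated control regions, and TRIM28, the co-repressor they recruit, keep that methylation in place in the early embryo. A peak list cannot tell the parental copies apart.

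HP1a (encoded by CBX5) and HP1b (encoded by CBX1) were mapped by ChIP-seq in MCF10A, an established human mammary epithelial line that does not form tumours. There were 4 groups of 2 libraries: HP1a ChIP in cells with HP1B knocked down, HP1a ChIP in wild-type cells, HP1b ChIP in cells with HP1A knocked down, and HP1b ChIP in wild-type cells. How the knockdowns were made and how far they lowered the targeted protein is not given in the sources used here, and a peak list does not measure it. The labels do not say that the replicates came from separate cultures, so the spread between them may be technical.

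The lists differed in length. HP1a peaks covered 9.89 and 9.68 Mb with HP1B knocked down, against 69.8 and 60.4 Mb in wild type. HP1b peaks covered 118 and 165 Mb in the HP1A knockdown, against 158 and 157 Mb in wild type. The weakest peak of all 8 lists had a −log10 q of 1.00. In −log10 p, the weakest HP1a peak had 3.43 with HP1B knocked down, against 2.75 and 2.80 for wild type. Read depth is unknown, and where a list has no peak the protein is not shown to be missing. Because of the unequal lists, a relative coverage is given beside the covered share for the main genes: how many bases of the gene window lay under peaks for each Mb under peaks genome-wide.

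Start sites of 4 of the 10 genes (PLAGL1, GRB10, MEST and UBE3A) had 18 promoter windows in the RefSeq table (GRCh38.p14), each running from 250 bases before to 50 bases after a start. Peaks touched 3 of the 18 windows, all in wild-type HP1b libraries. Some windows of MEST and of UBE3A overlap each other. The share of all promoter windows with a peak is not given, so the count of 3 has no baseline. The 4 windows shown put starts that held a peak in wild-type HP1b beside starts with more CG and matches to an imprinting motif that held none. Capitals mark TGCCGC, the core motif of ZFP57, on either strand; matches may overlap, as they do in MEST. The windows lie at chr6:144008210-144008509 (minus strand), chr6:143965429-143965728 (minus strand), chr7:130491835-130492134 (plus strand) and chr7:50732304-50732603 (minus strand), in the order of the lines.
PLAGL1 start rich in CG: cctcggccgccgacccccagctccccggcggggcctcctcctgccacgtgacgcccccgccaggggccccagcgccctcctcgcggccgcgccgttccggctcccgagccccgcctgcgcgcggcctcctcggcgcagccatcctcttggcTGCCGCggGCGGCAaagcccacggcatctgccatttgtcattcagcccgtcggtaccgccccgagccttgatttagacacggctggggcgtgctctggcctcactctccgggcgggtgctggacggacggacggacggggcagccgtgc
PLAGL1 start poor in CG: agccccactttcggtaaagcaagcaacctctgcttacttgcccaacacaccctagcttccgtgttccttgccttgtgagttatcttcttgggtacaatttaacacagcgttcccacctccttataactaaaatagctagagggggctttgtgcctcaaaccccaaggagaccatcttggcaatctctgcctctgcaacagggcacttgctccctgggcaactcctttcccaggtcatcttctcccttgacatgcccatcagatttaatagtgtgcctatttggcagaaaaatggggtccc
MEST start: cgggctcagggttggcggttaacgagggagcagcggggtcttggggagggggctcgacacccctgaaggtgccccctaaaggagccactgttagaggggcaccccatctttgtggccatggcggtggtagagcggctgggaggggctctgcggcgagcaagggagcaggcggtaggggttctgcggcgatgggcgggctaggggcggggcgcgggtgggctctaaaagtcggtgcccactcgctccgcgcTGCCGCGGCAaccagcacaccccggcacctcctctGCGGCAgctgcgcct
GRB10 start poor in CG: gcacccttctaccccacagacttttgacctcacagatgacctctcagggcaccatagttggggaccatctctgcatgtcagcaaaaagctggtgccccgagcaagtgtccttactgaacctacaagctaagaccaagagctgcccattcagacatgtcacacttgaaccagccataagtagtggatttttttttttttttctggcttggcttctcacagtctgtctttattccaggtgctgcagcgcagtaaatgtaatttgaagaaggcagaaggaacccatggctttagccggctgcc

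The CG-rich PLAGL1 window held 39 CG and 2 matches to TGCCGC, and no library had a peak in it. The CG-poor PLAGL1 window held 3 CG and no match, and both wild-type HP1b libraries had a peak in it, with folds of 2.77 and 2.93. The CG-poor GRB10 window also held 3 CG and no match, and it carried a peak of fold 2.86 in wild-type HP1b replicate 1. The remaining window with a peak was another PLAGL1 start, at chr6:144055213-144055512, with 3 CG and a peak of fold 2.82 in wild-type HP1b replicate 1. The MEST window held 25 CG, 3 matches to TGCCGC and 1 to ATGGCGG, a motif of the factor YY1, and had no peak in any library. Few CG did not go with a peak in every case: the PLAGL1 start at chr6:143961363-143961662, with 2 CG, and the GRB10 start at chr7:50705252-50705551, with 4 CG, had none in any library. The outermost GRB10 start, at chr7:50793404-50793703, held 44 CG and no peak either. Among all 22156 promoter windows of the table the median was 21 CG, 20.6% held TGCCGC and 7.0% held ATGGCGG on either strand. A match describes the letters only and is not a bound site.

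Across the 10 genes, HP1a had 4 and 4 distinct peaks with HP1B knocked down, against 34 and 23 in wild type. HP1b had 38 and 52 in the HP1A knockdown, against 72 and 64 in wild type. At least 1 peak was listed in 4 and 3 of the 10 genes for HP1a in the knockdown, against 6 and 6 in wild type, and in 8 and 9 genes for HP1b in the knockdown, against 9 and 8 in wild type. Of all protein-coding genes, 20.1 and 18.3% had an HP1a peak in the knockdown, against 54.2 and 48.4% in wild type. For HP1b these shares were 42.7 and 58.4% in the knockdown, against 64.2 and 67.0% in wild type. Most peaks were weak: the folds of all these peaks lay between 2.29 and 4.77, and a −log10 q of 2 or more was reached by 0 and 0 HP1a peaks in the knockdown, 3 and 4 in wild type, and by 2 and 16 HP1b peaks in the knockdown, 2 and 2 in wild type. Over the whole lists, such peaks made up 1.70 and 1.35% for HP1a in the knockdown, against 10.9 and 7.23% in wild type. For HP1b they made up 9.75 and 22.2% in the knockdown, against 3.68 and 7.70% in wild type. The strongest peak, with a fold of 4.77 and a −log10 q of 4.69, lay in UBE3A in HP1b replicate 2 of the HP1A knockdown.

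**Figure D1:**
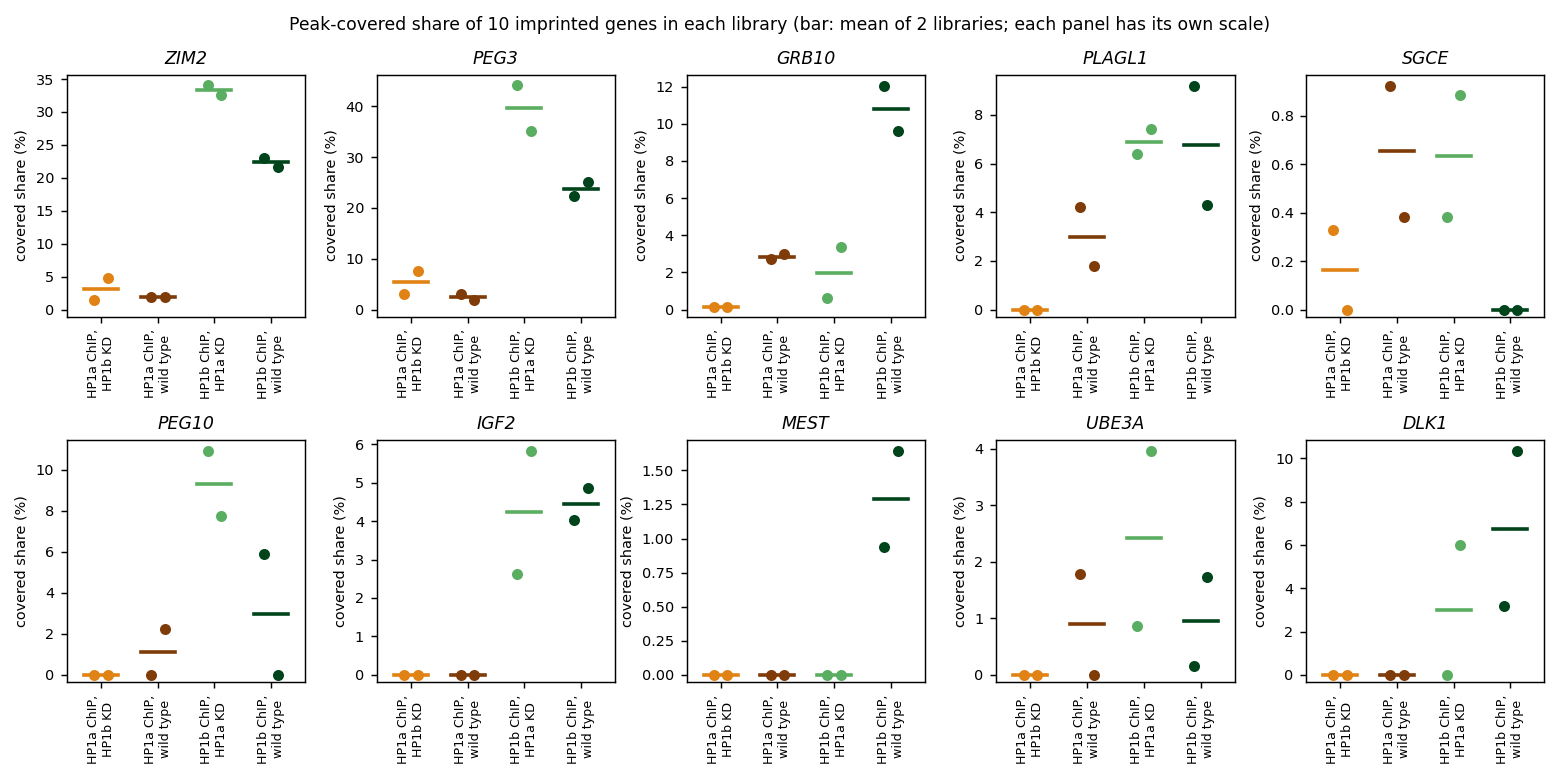
Share of each gene window under peaks (%), with a panel and a scale for each of the 10 genes. Points are libraries and lines are means of 2 libraries; ZIM2 and PEG3 stood highest in both HP1b groups, and GRB10 was lower in both knockdown groups than in wild type.

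ZIM2 and PEG3 had the highest HP1b coverage of the 10 genes. Both are zinc finger genes at the end of chromosome 19, PEG3 being a paternally expressed gene of growth and maternal behaviour in mice, and in humans they share a start of transcription. ZIM2 lies at chr19:56774547-56840726 and PEG3 at chr19:56810082-56840726, inside it, so the values below for PEG3 are part of those for ZIM2.

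HP1b covered 34.0 and 32.5% of ZIM2 in the HP1A knockdown, against 23.0 and 21.7% in wild type. Both knockdown libraries stood above both wild-type libraries. The means were 33.3 ± 1.08% and 22.3 ± 0.906% (SD, n = 2 each), a fold of 1.49. Scaled to the library's total, ZIM2 took 196 and 134 bases per Mb of peak-covered bases in the knockdown, against 99.0 and 94.1 in wild type, and the groups stayed apart. The peaks were fewer and wider: there were 16 and 14 with median widths of 952 and 1578 bases in the knockdown, against 19 and 19 with medians of 750 and 519 bases in wild type.

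In PEG3, HP1b covered 44.1 and 35.1% in the HP1A knockdown, against 22.3 and 25.2% in wild type. The means were 39.6 ± 6.36% and 23.8 ± 2.02% (SD, n = 2 each), a fold of 1.67, with no overlap between the groups. Of all protein-coding genes, 0.370 and 1.53% had an HP1b share at or above that of PEG3 in the knockdown libraries, against 2.38 and 2.17% in the wild-type libraries. With peaks of −log10 p of at least 4 alone, the difference between the groups was 12.2 percentage points in PEG3 and 10.6 in ZIM2, and with −log10 q of at least 2 it was 0.345 and 5.37. Peaks of −log10 q of at least 2 made up a larger share of both knockdown HP1b lists than of either wild-type HP1b list.

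The widest HP1b peaks of the locus had nearly the same place in both knockdown libraries. They measured 4473 and 4535 bases and both ran from 45.9 to 50.4 kb above the low-coordinate end of ZIM2, inside PEG3. In wild type the same stretch held shorter peaks, 1 of 1164 bases starting there in replicate 1 and 4 of 197 to 678 bases in replicate 2. Of the 30 HP1b peaks of ZIM2 in the knockdown libraries 27 met a wild-type HP1b peak, and of the 38 in wild type 36 met a knockdown peak. Bases covered in both replicates made up 21.0% of the ZIM2 window in the knockdown and 10.2% in wild type.

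HP1a coverage of the locus was lower than that of HP1b, and in neither gene were both HP1B knockdown libraries below wild type. HP1a covered 1.48 and 4.76% of ZIM2 with HP1B knocked down, against 1.95 and 1.92% in wild type, and these groups overlapped. In PEG3 it covered 3.08 and 7.65% in the knockdown, against 3.07 and 1.81% in wild type, so that the lower knockdown library stood only just above the higher wild-type library. Relative to the short lists of the knockdown, ZIM2 took 102 and 335 bases per Mb in the knockdown, against 19.1 and 21.7 in wild type. On that scale both knockdown libraries were above both wild-type libraries in both genes.

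A stretch of 115 bases at chr19:56821347-56821461 was covered in 6 of the 8 libraries, the most for any base of the 10 genes. These were both HP1a libraries of the HP1B knockdown and all 4 HP1b libraries, while neither wild-type HP1a library covered it. Wild-type HP1a replicate 1 had a peak nearby, at chr19:56820448-56820631. The knockdown HP1a peaks there had folds of 3.51 and 3.99.

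**Figure D2:**
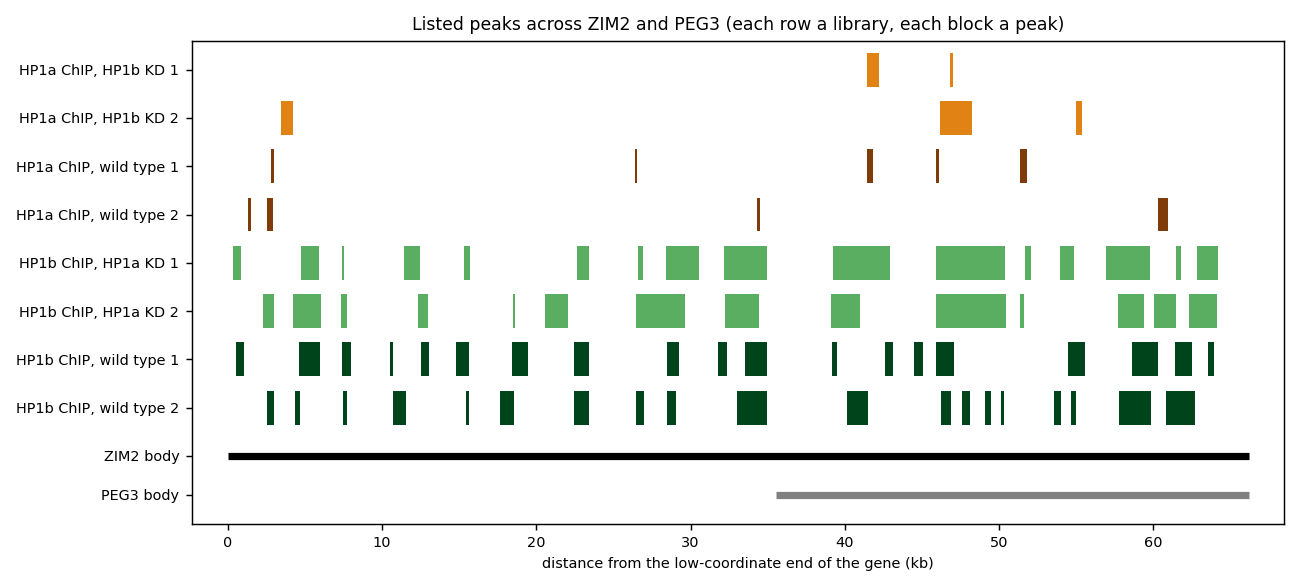
Each row is a library and each block a listed peak, placed by its distance in kb from the low-coordinate end of ZIM2; the bars at the bottom are the bodies of ZIM2 and PEG3. The widest blocks are the HP1b peaks of 4473 and 4535 bases in the HP1A knockdown, inside PEG3.

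GRB10 had the reverse pattern. It lies at chr7:50590068-50793453 and encodes an adaptor protein that dampens insulin and IGF1 receptor signalling, expressed from the maternal or the paternal copy depending on the tissue. HP1b covered 0.606 and 3.35% of it in the HP1A knockdown, against 12.1 and 9.58% in wild type. Both knockdown libraries stood below both wild-type libraries. The means were 1.98 ± 1.94% and 10.8 ± 1.74% (SD, n = 2 each), so the wild-type mean was 5.47 times the knockdown mean. In relative coverage GRB10 took 10.5 and 41.8 bases per Mb in the knockdown, against 157 and 125 in wild type. The difference rested on weak peaks: it was -8.84 percentage points with all peaks, -0.121 with peaks of −log10 p of at least 4 and 0.248 with −log10 q of at least 2.

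HP1a in GRB10 stood in the same order. It covered 0.155 and 0.113% in the HP1B knockdown, from 1 peak in each library, against 2.71 and 2.96% from 12 peaks each in wild type. The means were 0.134 ± 0.0296% and 2.84 ± 0.177% (SD, n = 2 each), and the wild-type mean was 21.2 times the knockdown mean. The relative coverage was 32.2 and 24.0 bases per Mb in the knockdown, against 79.8 and 101 in wild type, and on this scale too both knockdown libraries were below both wild-type libraries.

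The place of GRB10 that was covered in most libraries lay toward its high-coordinate end, where its outermost starts are. Of the 59 wild-type HP1b peaks 11 met a peak of the HP1A knockdown, and of the 16 knockdown peaks 11 met a wild-type peak. A stretch of 358 bases at chr7:50788427-50788784 was covered in both HP1b and both HP1a wild-type libraries and in HP1b replicate 2 of the HP1A knockdown. HP1b replicate 1 of that knockdown had its nearest peak at chr7:50789031-50789592, and the HP1a peak of HP1B knockdown replicate 1 lay at chr7:50788013-50788330.

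PLAGL1, a paternally expressed zinc finger transcription factor that restrains cell growth, lies at chr6:143940300-144064599. HP1a covered none of it in either HP1B knockdown library, against 4.20 and 1.78% in wild type, from 12 and 5 peaks. HP1b covered 6.39 and 7.41% in the HP1A knockdown, against 9.20 and 4.30% in wild type, and these groups overlapped. The means were 6.90 ± 0.720% and 6.75 ± 3.46% (SD, n = 2 each).

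The HP1b peaks of PLAGL1 were not all at the same places in both conditions. Between 106 and 110 kb above the low-coordinate end both knockdown libraries had peaks, the widest of 1276 and 2305 bases, and neither wild-type HP1b library had one there. Bases covered in both replicates made up 3.40% of the window in the knockdown and 1.04% in wild type. A place shared more widely was chr6:143992728-143992773, covered in both HP1b libraries of the knockdown, wild-type HP1b replicate 1 and both wild-type HP1a libraries.

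**Figure D3:**
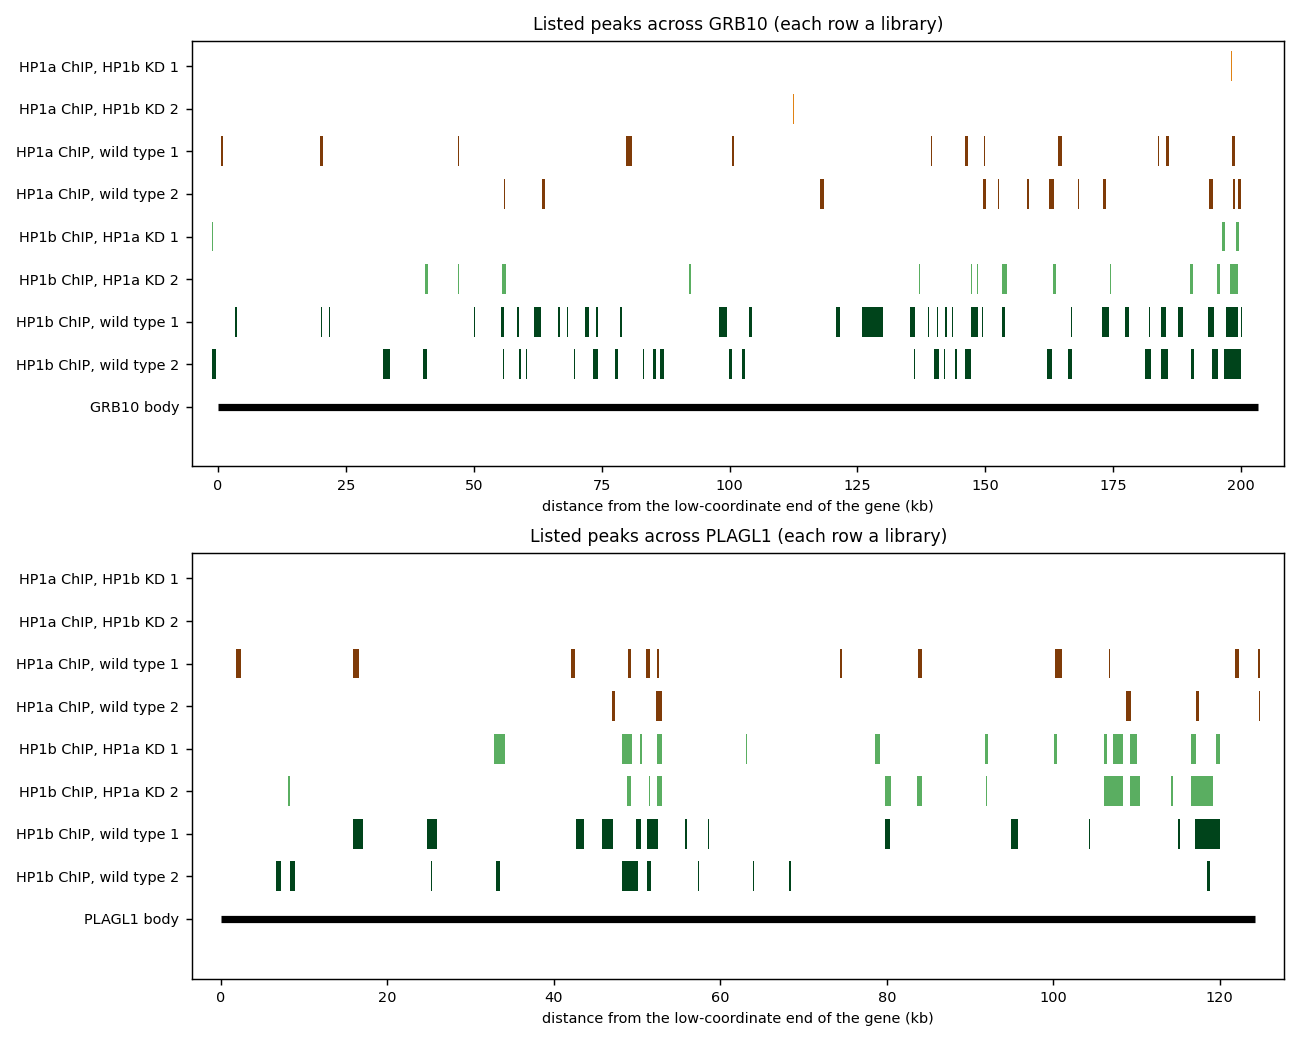
Each row is a library and each block a listed peak, placed by its distance in kb from the low-coordinate end of GRB10 (top) or PLAGL1 (bottom). GRB10 held 3 and 13 HP1b peaks in the HP1A knockdown and 33 and 26 in wild type; the HP1a rows of PLAGL1 in the HP1B knockdown are empty.

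SGCE and PEG10 are neighbouring, paternally expressed genes on chromosome 7. SGCE, at chr7:94584980-94656133, encodes a sarcoglycan whose loss causes myoclonus dystonia. HP1b covered 0.380 and 0.884% of it in the HP1A knockdown, from 1 peak in each library, against none in wild type. The peaks of the knockdown libraries lay in different places. HP1a covered 0.328% in replicate 1 and none in replicate 2 with HP1B knocked down, against 0.924 and 0.384% in wild type. In relative coverage these groups overlapped, at 24.3 and 0 bases per Mb in the knockdown and 9.68 and 4.65 in wild type.

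PEG10, at chr7:94656325-94669695, derives from the gag and pol genes of a retrotransposon. HP1b covered 10.9 and 7.75% of it in the HP1A knockdown, a single peak in each library, against 5.89% and none in wild type. The groups did not overlap, with means of 9.33 ± 2.24% and 2.95 ± 4.17% (SD, n = 2 each). The knockdown peaks measured 1678 and 1191 bases and shared chr7:94664713-94665077. HP1a had no peak in PEG10 in the HP1B knockdown, where wild type had none and 2.22%.

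IGF2 at chr11:2129117-2149566, a growth factor expressed from the paternal copy, and DLK1 at chr14:100726892-100738224, a paternally expressed ligand-like protein of the Notch pathway, had HP1b peaks and no HP1a peak in any of the 4 HP1a libraries. HP1b covered 2.63 and 5.82% of IGF2 in the HP1A knockdown, against 4.04 and 4.86% in wild type, with overlap between the groups. No base of IGF2 was covered in more than 1 library, so the shares came from different places each time. HP1b covered none and 6.00% of DLK1 in the knockdown, against 3.17 and 10.3% in wild type, again with overlap.

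MEST, at chr7:130486175-130506465, is a paternally expressed gene of the alpha/beta hydrolase fold family, and hsa-miR-335 lies inside it. It had the fewest peaks of the 10 genes. HP1b covered none of it in the HP1A knockdown, against 0.938 and 1.64% in wild type, from 1 peak in each library at different places, and HP1a had no peak in any library. No library had a peak over the miR-335 hairpin.

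UBE3A, at chr15:25333728-25439056, encodes a ubiquitin ligase that is imprinted in neurons and expressed from both copies in most other cells. HP1b covered 0.866 and 3.96% of it in the HP1A knockdown, against 0.163 and 1.72% in wild type, with overlap between the groups. HP1a had no peak there in the HP1B knockdown, whereas wild type had 1.78% and none. The HP1b peaks of the knockdown replicates met at chr15:25383422-25383619.

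Set in order by mean HP1b share, the genes stood in the HP1A knockdown as PEG3, ZIM2, PEG10, PLAGL1, IGF2, DLK1, UBE3A, GRB10, SGCE and MEST. In wild type the order was PEG3, ZIM2, GRB10, DLK1, PLAGL1, IGF2, PEG10, MEST, UBE3A and SGCE. PEG3 and ZIM2 stood apart from the rest in both groups, and from each other in the knockdown but not in wild type. In the knockdown the libraries of PEG10 and PLAGL1 also stood apart from those of the next gene in the order, and MEST stood apart at 0, while from IGF2 to SGCE each gene overlapped the next. In wild type each gene from GRB10 to UBE3A overlapped the next, and SGCE stood apart at 0. GRB10 was the gene that changed place most. For HP1a the order was PEG3, ZIM2, SGCE and GRB10 in the HP1B knockdown, with the other genes at 0, against PLAGL1, GRB10, PEG3, ZIM2, PEG10, UBE3A and SGCE in wild type, where each overlapped the next and DLK1, IGF2 and MEST were at 0.

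For HP1a, peaks were lost in PLAGL1 only, where both wild-type libraries and neither HP1B knockdown library had a peak, they were kept in all 4 libraries in ZIM2, PEG3 and GRB10, and no gene gained them (0.728% of 7421 genes). Of the 7945 protein-coding genes with a peak in both wild-type HP1a libraries, 47% lost and 21.7% kept theirs. Among the 10 genes, 5 had a peak in both of these libraries and 3 had none in either. The covered share was below wild type in both knockdown libraries in 3 of the 7 genes with an HP1a peak in any library (GRB10, PLAGL1 and SGCE), against 53.2% of 13229 such genes, and above it in PEG3, against 1.01%. In relative coverage 2 genes were below (GRB10 and PLAGL1) and 2 above (ZIM2 and PEG3). No share over all genes is given on this scale. The ZIM2 and PEG3 windows overlap, and both held the same HP1a peaks in HP1B knockdown replicate 1. For HP1b, 8 of the 10 genes had a peak in both wild-type libraries. Of these 8, peaks were lost in MEST (14.2% of 11100 genes) and kept in 6 genes (63.6%). SGCE, the only gene of the 10 with no peak in either wild-type HP1b library, gained HP1b peaks (4.21% of 4867 genes). Both knockdown libraries stood above both wild-type libraries in ZIM2, PEG3, PEG10 and SGCE, against 8.38% of 16140 genes, and below them in GRB10 and MEST, against 33.9%. The list was chosen on these values, so nothing is read from its counts.

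In wild type, the HP1b share was above the HP1a share in both libraries in 7 of the 10 genes, against 47.8% of 16013 genes, and below it in SGCE, against 2.33%. ZIM2, PEG3, GRB10 and PLAGL1 had peaks of both proteins in all 4 libraries (92% of genes with HP1a peaks in both). DLK1, IGF2 and MEST had peaks in both HP1b libraries and in neither HP1a library (17.9% of 7421 genes), and SGCE had the opposite (1.47% of 7945 genes). The mean HP1b share was 11.5 times the mean HP1a share in ZIM2, 9.74 times in PEG3, 3.81 times in GRB10 and 2.26 times in PLAGL1. With peaks of −log10 p of at least 4 alone the difference in ZIM2 was 0.359 percentage points, against 20.4 with all peaks, and in PEG3 and GRB10 it turned to -0.247 and -0.685. Relative to the longer HP1b lists, ZIM2 took 99.0 and 94.1 bases per Mb for HP1b, against 19.1 and 21.7 for HP1a. PEG3 took 46.1 and 52.3 for HP1b against 14.4 and 9.76, and GRB10 took 157 and 125 against 79.8 and 101. On this scale the PLAGL1 libraries overlapped, at 73.5 and 34.6 bases per Mb for HP1b and 76.0 and 37.2 for HP1a.

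Other imprinted genes came from a textbook list, of which 35 were protein-coding and matched the annotation. In limma (Benjamini-Hochberg over all genes fitted), relative HP1a coverage fell in 6 and rose in 1 of the 20 that could be fitted in the HP1B knockdown, where 28.9% of 8878 genes fell, 1.79% rose and 30.7% changed in either direction. Those that fell were IGF2R, INPP5F, ZNF331, MAGEL2, WT1 and FAM50B, with adjusted p between 0.0248 and 0.0400; all 6 were listed at 0 in both knockdown libraries, so their log2 changes depend on the pseudocount. With the pseudocount multiplied by 4, with no filter, with the replicate block, or without either wild-type HP1a library, 0 fell and 0 rose. FAM50B, IGF2R, MAGEL2 and WT1 also missed the threshold without either knockdown library. IGF2R, the receptor that clears IGF2, had a mean HP1a share of 0% in the knockdown and 0.844% in wild type. ZNF331, a zinc finger gene, had 0% in the knockdown and 4.54% in wild type. The rise was in KCNQ1, a potassium channel gene, with a log2 change of 1.64 (SE 0.27, adjusted p = 0.029 by limma); its covered share was 0.981% in the knockdown and 2.08% in wild type, and without scaling the log2 change was −0.86. The median log2 change was −0.92 over the 20 genes and −1.23 over all genes. Without scaling the median over all genes was −2.16.

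For HP1b no gene passed the threshold in limma, 0 of 28 other imprinted genes and 0 of 13101 in all (0%), with 6 and 3264 at an unadjusted p under 0.05. The count of 0 depended on the fit: with the replicate block 132 genes rose and 319 fell, 0 of them other imprinted genes, and with a library left out 75 to 280 rose and 76 to 1845 fell, of which 0 to 2 and 0 to 3 were other imprinted genes. The median log2 change was 0.52 over the 28 genes and −0.48 over all genes. In wild type, HP1b against HP1a gave 0 of 28 and 0 of 13090 (0%), with 4 and 1665 at an unadjusted p under 0.05, and medians of 0.15 and 0.10. With a library left out, 1 to 244 genes were higher and 1 to 197 lower for HP1b than for HP1a. A peak of both replicates was lost with HP1A knocked down in 1 of 26 of these genes, INPP5F, and kept in 20, where 14.2% of all such genes lost and 63.6% kept theirs.

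The 3 highest HP1b shares among the other imprinted genes were 44.0 ± 17.1% in MKRN3, 40.1 ± 18.2% in ATP10A and 39.4 ± 27.8% in ZIM3 in the HP1A knockdown, and 39.0 ± 3.92% in NPAP1, 34.0 ± 2.73% in SNRPN and 32.4 ± 14.0% in NDN in wild type (SD, n = 2 each). PEG3, at 39.6% in the knockdown, was in the same range, while ZIM3, a zinc finger gene of the PEG3 domain, had 19.6% in wild type. MKRN3, NPAP1, SNRPN, NDN and ATP10A lie in the chromosome 15 cluster that also holds UBE3A, whose means were 2.41% in the knockdown and 0.943% in wild type. HP1a was highest in ATP10A, MKRN3 and NLRP2 in the HP1B knockdown, at 4.47 ± 2.87, 4.21 ± 5.95 and 2.44 ± 0.0374%, and in MAGEL2, NDN and SNRPN in wild type, at 17.7 ± 7.18, 16.4 ± 23.2 and 13.2 ± 0.712%. PEG3, at 5.37 ± 3.23% in the HP1B knockdown and 2.44 ± 0.895% in wild type (SD, n = 2 each), lay within the spread of ATP10A and MKRN3 in the knockdown.

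**Figure D4:**
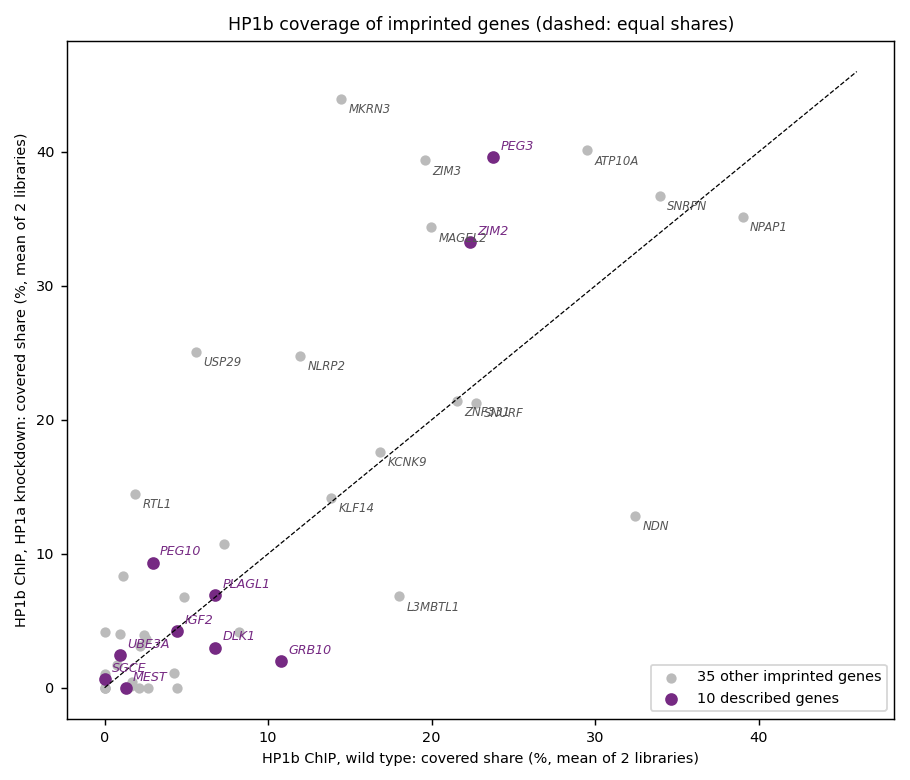
Mean HP1b covered share (%) of imprinted genes in the HP1A knockdown (vertical axis) against wild type (horizontal axis), means of 2 libraries, with the 10 described genes in purple and 35 other imprinted genes in grey. PEG3 and ZIM2 lie above the dashed line of equal shares and GRB10 lies below it, at 1.98% in the knockdown and 10.8% in wild type.

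A further list held 16 genes taken for roles in setting or keeping imprints. Among them, HP1a coverage fell in CTCFL, DNMT1 and ZFP57 in the HP1B knockdown (limma, adjusted p 0.0248, 0.0248 and 0.0263, 11 fitted, where 28.9% of all genes fell). Each was listed at 0 in both knockdown libraries. All 3 missed the threshold with either knockdown library left out, with the pseudocount multiplied by 4, with no filter and with the replicate block. CTCFL is the germ-line paralog of CTCF, DNMT1 copies methylation after replication and ZFP57 binds methylated control regions. The highest mean shares over the 8 libraries, which pool both proteins and both conditions, were 13.9% in NLRP7, 13.3% in NLRP5, both genes of the egg, and 3.99% in ZNF445. The order differed between groups: for HP1b NLRP5 had 34.7 ± 6.59% and NLRP7 23.3 ± 10.2% in the HP1A knockdown, against 14.7 ± 3.14% and 21.3 ± 1.78% in wild type. ZNF445 had 6.08 ± 3.59% in the knockdown, where ZFP57 had 6.61 ± 7.64%, and 7.64 ± 0.983% in wild type, where ZFP57 had 1.87 ± 0.618% (SD, n = 2 each). TRIM28 had no peak in any library. No gene of the 16 passed for HP1b, of 14 fitted, or between the proteins in wild type, of 13 fitted.

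The nearest 5 genes on each side that are not on the imprinted lists gave the local setting. HP1b coverage was above the median of these 10 neighbours for 8 of the 10 genes in the HP1A knockdown and for 7 in wild type, and HP1a coverage for 4 in the HP1B knockdown and 3 in wild type. ZIM2 and PEG3 had the same neighbours, and so did SGCE and PEG10. The list was chosen on coverage values and no share over all genes is given, so nothing is read from these counts. ZIM2 and PEG3 lie among zinc finger genes of unequal coverage, and the neighbours' median HP1b share was 28.7% in the HP1A knockdown and 10.9% in wild type. ZNF71 had 31.7 ± 3.70% in the knockdown and 42.3 ± 2.38% in wild type. Of others named after their values were seen, ZNF835 had 41.7 ± 17.3% in the knockdown and 15.9 ± 13.4% in wild type, and ZNF264 had 1.78 ± 1.61% and 0.943 ± 0.749% in those groups (SD, n = 2 each). PEG3 was above 8 of the 10 in the knockdown and 9 of them in wild type.

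For HP1b in wild type, the means of GRB10, DLK1 and IGF2 were above those of all 10 neighbours. GRB10 had 10.8 ± 1.74%, against 8.60 ± 2.28% in DDC, its highest neighbour. DLK1 had 6.76 ± 5.07%, against 4.27 ± 4.63% in LOC124903407 (SD, n = 2 each), and the spreads overlapped in both pairs. IGF2 had 4.45%, against 3.20% in INS-IGF2, a readthrough gene whose midpoint lies 5.82 kb from that of IGF2. With 10 genes taken on each side, GRB10 was above 18 of 20, DLK1 above 16 and IGF2 above 19. The highest neighbours then had 15.7, 7.64 and 7.75%. With HP1A knocked down GRB10 was above 7 of its 10 neighbours, and DDC had 5.33%. PEG10 was above all 10 neighbours in the HP1A knockdown, at 9.33%, against 7.48% in PON3, and above 7 of them in wild type. MEST was below all 10 in the knockdown and above 1 in wild type, and CPA1 had 37.7 ± 18.4% in the knockdown and 11.1 ± 0.103% in wild type. For HP1a, PLAGL1 was above all 10 in wild type, at 2.99 ± 1.71%, where PHACTR2, the highest neighbour, had 2.51 ± 0.543% (SD, n = 2 each), so the difference was within the spread of PLAGL1.

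**Figure D5:**
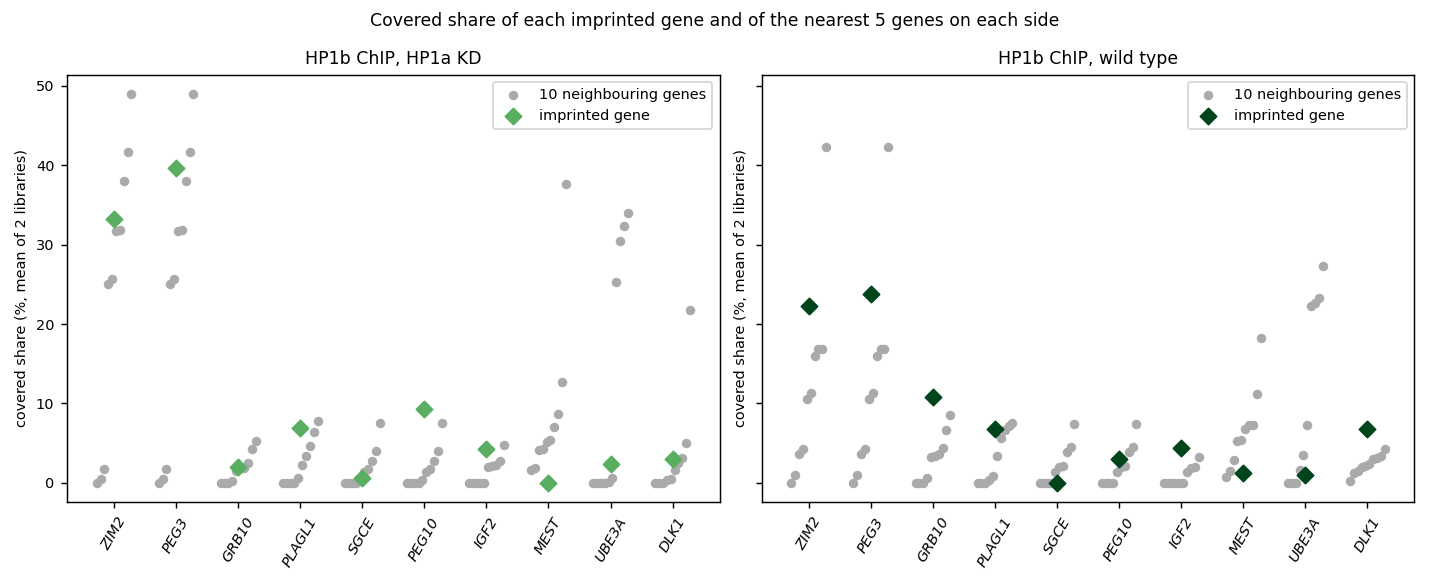
Mean HP1b covered share (%) of each imprinted gene (diamond) and of the nearest 5 genes on each side (grey points), in the HP1A knockdown (left) and wild type (right). GRB10 was above all 10 neighbours in wild type and above 7 in the knockdown; MEST was at 0 in the knockdown.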

How the data were processed

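The 8 peak lists are the authors' own. Per the submitters' processing notes, reads (76 bases, paired-end, per the labels' protocols) went through Trimmomatic, Bowtie2, SAMtools and MACS3 on hg38. The sources used here do not give versions or settings, or say whether there was an input library. The deposited columns are a score, a fold enrichment (a ratio), a −log10 p and a −log10 q for each broad peak, called per library. There are no read counts, so no depth, interval or floor could be set.

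Only peaks on the 22 autosomes and X entered, which kept 99.1 to 99.7% of a list. Gene bounds came from RefSeq on GRCh38.p14, and a peak met a gene by at least 1 base. The members and lists were chosen with earlier results of these data known. Of 43 other imprinted genes named, 42 matched, 35 of them protein-coding. Relative coverage was fitted with limma 3.58.1 in R 4.3.3 (moderated test, variance trend) on the log2 scale, after adding the 10th percentile of the non-zero values, for genes where 2 or more of a comparison's 4 libraries had a peak, with an adjusted p threshold of 0.05; the deposited lists hold no log2 values. The fit was tested on simulated normal values with a known large shift. These held no genes emptied of peaks and no lists of unequal length, so the test does not bear on such cases. Named genes were all 10 members, other imprinted genes past the threshold or among the 3 highest in a group, factors by the same rule over all libraries, and the neighbour with the highest mean share for each member. The labels do not say whether libraries with the same replicate number belong together, and the main fits left them unpaired. The correlations of deviations were 0.0233, 0.0440 and -0.0133, but 2 pairs are too few to exclude a pairing. Alternatives were no scaling, another pseudocount, no filter, stronger peaks, equal list lengths, other flanks, 50% overlap, a replicate block, a fit of all libraries together, more neighbours and each library left out.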

Additional observations from a re-analysis of the deposited data

How the results depend on the processing

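The covered shares rest on weak peaks whose lists differ in length, and depth is unknown. For HP1a, 159 genes rose and 2567 fell in the HP1B knockdown. These became 57 and 4808 without scaling, 4 and 867 with −log10 q of at least 2, 366 rising with all 8 libraries in a single fit, 19 and 0 with the replicate block, and 0 and 0 with the pseudocount multiplied by 4, with no filter, with equally many top peaks taken per library, and with −log10 p of at least 4. Leaving out a library gave 24 to 1092 that rose and 2 to 2565 that fell, with 2 falling without wild-type HP1a replicate 1 or 2, and 885 and 1092 rising without HP1B knockdown replicate 1 and 2. Of the other imprinted genes, 1 rose and 6 fell; no scaling gave 0 and 10, −log10 q of at least 2 gave 0 that rose, and the pseudocount, filter, −log10 p, top peaks and replicate block settings gave 0 and 0. Leaving out a library gave 0 to 3 and 0 to 7, both 0 without either wild-type HP1a library. KCNQ1 turned to −0.86 without scaling. For HP1b, no gene passed; 7 rose with no filter, 9 rose and 1 fell with top peaks, 132 rose and 319 fell with the replicate block, and 75 to 280 rose and 76 to 1845 fell with a library left out (1845 without HP1A knockdown replicate 2), 0 to 2 and 0 to 3 of them other imprinted genes. In wild type, leaving out a library gave 1 to 244 genes higher (244 without HP1a replicate 1) and 1 to 197 lower in HP1b (197 without HP1a replicate 2), 0 to 1 and 0 to 1 of them other imprinted genes. The cause was not tested.

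Of the 10 genes, PLAGL1 was no longer counted as having lost HP1a peaks with top peaks (0), and 1 to 2 were with a library left out (1 without HP1B knockdown replicate 2, 2 without any other); 0 of 3 kept HP1a peaks with −log10 q of at least 2. For HP1b, the lost count of 1 became 0 and the kept count of 6 became 1 with −log10 q of at least 2, 0 and 3 with −log10 p of at least 4. The gained count of 1 became 0 with both, with a flank of 2 kb and with top peaks, and with a library left out lost and gained counts were each 1 to 2 (2 lost without HP1A knockdown replicate 2, 2 gained without wild-type HP1b replicate 1). Over all genes, with a library left out, the HP1a lost count of 3738 became 4864 to 6053. The HP1b lost count of 1572 became 1896 to 3721, and the HP1b gained count of 205 became 353 to 885. Leaving out a library removes a condition from the definitions of lost, kept and gained. These counts, those of the 10 genes included, could therefore only stay or rise, and the rise says nothing about the library left out. In wild type the genes with HP1b peaks alone fell to 0 of 3 under both strength settings and top peaks, those with both to 0 and 2 of 4 with −log10 q and −log10 p, and SGCE dropped out (0) with a flank of 2 kb. Differences in covered share whose groups did not overlap and that turned sign were SGCE for HP1a (0.0349 percentage points with top peaks), GRB10 for HP1b in the knockdown against wild type (0.248 with −log10 q), and between the proteins in wild type PEG3 (-0.247 with −log10 p) and GRB10 (-0.307 with −log10 q, -0.685 with −log10 p). Of those whose groups overlapped, the sign turned with a library left out for HP1a in ZIM2 (-0.460 to 2.82), for HP1b in PLAGL1 (-2.30 to 2.60), IGF2 (-1.82 to 1.37) and UBE3A (-0.0778 to 3.01), and between the proteins in wild type in PEG10 (-1.11 to 4.78) and UBE3A (-0.840 to 0.943). Other settings turned it for HP1a in ZIM2 (-0.144 with −log10 q), for HP1b in DLK1 (0.664 with both strength settings) and IGF2 (0.130 with no flank, 1.60 with top peaks), and between the proteins in PEG10 (-0.403 with top peaks) and UBE3A (-0.0508 with no flank, -0.709 with top peaks).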

Other observations

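Of the imprinted long non-coding RNA genes on the same list, which were not in the fits, KCNQ1OT1, the paternally expressed antisense transcript inside KCNQ1, had HP1 peaks in all 8 libraries. Its HP1b share was 15.0 ± 3.19% in the HP1A knockdown and 11.4 ± 0.872% in wild type, and its HP1a share was 1.49 ± 1.07% in the HP1B knockdown and 3.64 ± 1.11% in wild type (SD, n = 2 each). PEG13 had an HP1b share of 0 and 4.32% in the HP1A knockdown, against 13.2 and 14.9% in wild type, and the groups did not overlap. MEG8, a maternally expressed RNA of the DLK1 locus, had 2.52 and 3.77% in the knockdown, against 0.620 and 0% in wild type, again with no overlap. MEG3, the maternally expressed RNA next to DLK1, had 0 and 1.63% in the knockdown, against 1.31 and 7.54% in wild type, and its groups overlapped. The other 3 genes had a peak in a single HP1b library of a group. AIRN, the antisense transcript of the IGF2R locus, had 0 and 19.8% in the knockdown, against 2.78 and 0% in wild type. H19, next to IGF2, had 0 and 6.13% in the knockdown and none in wild type. HYMAI, which lies within the PLAGL1 locus, had none in the knockdown, against 0 and 7.52% in wild type. No test was made of these values.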
